A study of Mus musculus with 27 samples.

Results

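Lungs of mice given an oligonucleotide that blocks the microRNA miR-155 were set against lungs of unsensitized mice, to find which RNAs stayed away from the unsensitized level and which did not differ from it. The 2 groups were taken by their column labels in the deposited tables of linear and circular RNA, and they make up 11 of the 27 libraries of the study, each from the left lung lobe of a BALB/c AnNHsd mouse aged 87 days. The AM155 group held 6 libraries. These mice received the oligonucleotide in TheraSilence lipid nanoparticles, as 3 intravenous doses of 2 mg/kg on days 11, 18 and 25 of a protocol of 35 days. The Saline group held 5 libraries from mice labelled unsensitized, so the groups differ in the treatment and, by the design of the study, in the allergic sensitization. No label states in words that the AM155 mice were sensitized, and no group received nanoparticles without the oligonucleotide. The CDG_HDM group held 10 libraries from mice sensitized with house dust mite extract and the adjuvant cyclic di-GMP and not treated further. It is used below to say which distances from Saline the AM155 and CDG_HDM lungs share. The other 6 libraries, Dex_CDGHDM, came from mice labelled dexamethasone treated, with 3 doses of 3 mg/kg on days 11, 18 and 25. They enter the fits of all 27 libraries through the shared estimate of the spread.

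MicroRNAs are short RNAs that pair with sites in messenger RNAs, mostly through bases 2 to 8 of the microRNA (the seed), and lower the translation and stability of those messages. miR-155 is made in activated lymphocytes, macrophages and dendritic cells and is known for its part in germinal centres, helper T cell responses and the answer to bacterial products. An oligonucleotide complementary to it blocks that pairing, so messages with sites would be freed from it. House dust mite extract given into the airways with an adjuvant draws lymphocytes and myeloid cells into the lung, makes plasma cells there and changes the airway epithelium.

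The mature microRNA and the sites it can pair with are shown first, because the treatment was aimed at them. In the RefSeq table for GRCm38.p6 the 5p strand lies at chr16:84714143-84714165 on the plus strand, and its seed is in capitals.
mmu-miR-155-5p: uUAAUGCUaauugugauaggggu
A message pairs with this seed through the letters AGCATTA, and the 8-base form AGCATTAA adds the base opposite the first position of the microRNA. Of 35 reported targets of miR-155 with an annotated 3′ untranslated region in GENCODE M21, 22 held a match and 16 of these an 8-base one. Stretches of 30 bases around the match (capitals) are given for 6 targets with different behaviour in these lungs.
Socs1, chr16:10784195-10784224, minus strand: cgctgtgccgcAGCATTAAgtgggggcgcc
Bach1, chr16:87732177-87732206, plus strand: atgaacagtttAGCATTAAgggttaatttt
Spi1, chr2:91115426-91115455, plus strand: ccgccggccatAGCATTAAcccgtcgcccg
Inpp5d, chr1:87719827-87719856, plus strand: tgtttttaaaaAGCATTAAagaaaaccatc
Trp53inp1, chr4:11170418-11170447, plus strand: acactaacacaAGCATTAAcaggtgatttt
Meis1, chr11:18881213-18881242, minus strand: aggatttttagAGCATTAAaataactatca

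Values are in TPM, a share of the library corrected for transcript length. Since TPM keeps no counts, sequencing depth is unknown and no counting interval is given. The linear table summed to 54.2 to 77.1% of the TPM scale in AM155 and to 80.6 to 85.9% in Saline, a difference of -143424 TPM in the means (exact permutation test from both sides, p = 0.00433, the smallest that 6 against 5 libraries can give, adjusted p = 0.013 over 3 tests). Every gene's share moves with that sum, so counts of calls are also given under other scalings. Among the 11 libraries, AM155 5 and AM155 6 stand apart in the circular table, where Sftpc alone held 177260 and 187944 TPM. High values also stood in the dexamethasone group, with 197545 TPM in Dex_CDGHDM 4 and 61473 TPM in Dex_CDGHDM 2. On the second principal component of the linear table, Saline 4 (-40.2) and AM155 6 (-37.6) were lowest. On the first (43.9%) the groups did not overlap, with AM155 between -3.65 and 40.3 and Saline between -48.1 and -27.8. Markers of lung were present in all 11 libraries. Ager, of alveolar type 1 cells, ranged from 1089 to 1668 TPM in AM155 and from 1689 to 2239 TPM in Saline, and Foxj1, of ciliated cells, from 20.2 to 45.1 TPM and from 31.5 to 45.9 TPM. The thymus gene Rag1 stayed between 0.999 and 1.83 TPM in AM155 and between 1.21 and 2.08 TPM in Saline. Of the other thymus markers, Dntt had 0.426 to 0.683 TPM in AM155 and 0.448 to 0.825 TPM in Saline. Ptcra had 2.18 to 3.17 TPM and 1.53 to 3.16 TPM. Cd1d1 had 11.5 to 17.9 TPM (median 13.9) and 8.29 to 11.9 TPM (median 11.2), higher in AM155 by the median.

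Of 17437 linear genes tested, 7059 (40.5%) differed between AM155 and Saline at an adjusted p of 0.05 in a limma model of log2(TPM + 1) over all 27 libraries. In AM155, 1364 genes (7.82%) were higher and 5695 (32.7%) lower, and the median change over all genes was -0.17 on the log2 scale. A fit of the 11 AM155 and Saline libraries alone called 5033 genes, 1195 higher and 3838 lower. A second test asked the opposite question, whether a gene lay within 1.5-fold of Saline (2 one-sided tests against a bound of 0.585 on the log2 scale, adjusted p of 0.05). By it, 12552 genes (72.0%) were within 1.5-fold. The 2 answers are not exclusive, since 2758 genes differed and were still within 1.5-fold. A further 9794 genes were within 1.5-fold with no call, 4301 differed and were not within 1.5-fold (1108 higher, 3193 lower), and 584 had neither answer. Genes at least 2-fold away numbered 299 higher (1.71%) and 287 lower (1.65%). The 6 AM155 and 5 Saline values did not overlap in 2959 genes (17.0%).

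The split into higher and lower depended on the scaling. With median-of-ratios scaling 3521 genes (20.2%) were higher and 3438 (19.7%) lower. With quantile normalization 3297 (18.9%) were higher and 4010 (23.0%) lower, and with all libraries brought to a common sum 4685 (26.9%) and 2141 (12.3%). Without AM155 5 and AM155 6, 1650 genes were higher and 2836 lower. Single genes were tested against no change and the 1.5-fold bound, not against the median change of -0.17, so small falls are to be read beside that median. Lists are set against the share of all genes with the same answer. As deposited, these shares are 7.82% higher, 32.7% lower and 72.0% within 1.5-fold, for every list below. Because the pseudocount of 1 compresses the change of genes near 1 TPM, the statement that such a gene is within 1.5-fold holds on the log2(TPM + 1) scale, and with a pseudocount of 0.1 the number of genes within 1.5-fold was 10725.

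**Figure D1:**
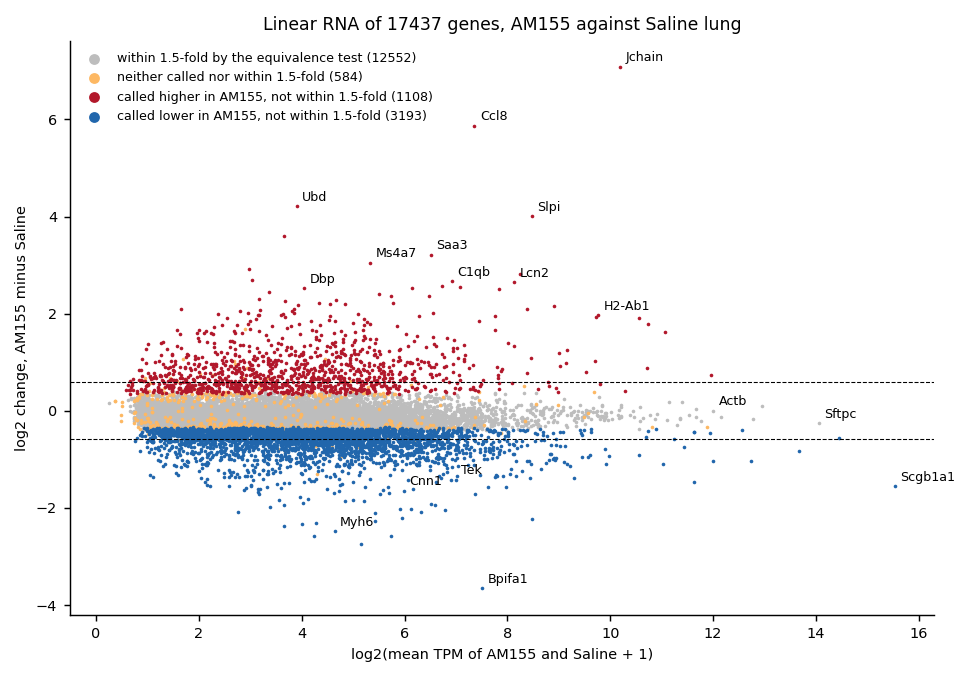
Each point is 1 of 17437 linear genes. The horizontal axis is log2 of the mean TPM of AM155 and Saline plus 1, the vertical axis the log2 change, AM155 minus Saline, and the dashed lines mark 1.5-fold in either direction. Jchain (7.08) and Ccl8 (5.87) lie highest, Bpifa1 (-3.66) lowest, and grey marks the 12552 genes within 1.5-fold, orange those with neither answer, red and blue the genes called higher and lower and not within 1.5-fold.

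A plasma cell gene had the largest change of all genes tested. Jchain, the peptide that joins the subunits of secreted IgA and IgM (chr5:88519809-88527891), had a lowest value of 1653, a median of 2236 and a highest of 3236 TPM in AM155. In Saline libraries 2, 4, 5, 8 and 10 it had 22.2, 10.0, 16.4, 10.8 and 24.0 TPM, and Saline values are given in this order throughout. All AM155 libraries lay far above all Saline libraries, with a log2 change of 7.08 ± 0.22 (SE, adjusted p = 1.15e-20). In the CDG_HDM libraries Jchain averaged 2670 ± 592 TPM (SD, n = 10), and the direct contrast of AM155 with CDG_HDM was -0.20 ± 0.19 (adjusted p = 0.729). Mzb1, a chaperone of antibody-secreting cells, reached 62.7 to 123 TPM in AM155 (median 86.9), against 15.6, 12.3, 16.2, 18.3 and 18.3 TPM in Saline, a change of 2.37 ± 0.19. Irf4, a transcription factor of plasma cells and activated lymphocytes, was 1.99 ± 0.20 higher, and Tnfrsf17, the receptor BCMA of plasma cells, 1.77 ± 0.19 higher. Cxcl13, the chemokine that draws B cells into follicles, was 23.8 to 45.2 TPM in AM155 (median 38.0), against 10.9, 7.61, 5.75, 9.09 and 9.85 TPM in Saline, a change of 1.96 ± 0.20 (adjusted p = 1.32e-08).

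Of the 20 genes in the B and plasma cell list, 10 were higher in AM155 (against 7.82% of all genes) and none lower, and 5 were within 1.5-fold. Sdc1, the syndecan CD138 that marks plasma cells and is also made by epithelium, averaged 93.8 TPM in AM155 and 100.4 TPM in Saline and was within 1.5-fold (-0.10 ± 0.10). Cd79b, a subunit of the B cell receptor complex, averaged 38.1 TPM in AM155 and 38.4 TPM in Saline (change -0.03 ± 0.26), and Cxcr5, the receptor for Cxcl13, averaged 16.6 and 17.4 TPM (-0.05 ± 0.19). Cd79b and Cxcr5 were within 1.5-fold, though for Cd79b this did not hold without AM155 2, 6 or 8 or Saline 2, 4 or 8 (-0.16 to 0.16), nor under the other scalings. Ms4a1 (0.18 ± 0.31) and Pax5 (-0.46 ± 0.31) had neither a call nor an answer within 1.5-fold. Of 16 secretory pathway genes, 6 were higher, against 7.82% of all genes, and 10 within 1.5-fold, a share near the 72.0% of all genes. Edem1, which helps degrade misfolded proteins, was 1.52 ± 0.14 higher. Hspa5, the chaperone BiP, was within 1.5-fold (0.02 ± 0.18). In whole lobes, more cells of a type and more RNA per cell cannot be told apart, which holds for every list here.

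T cell genes were higher as a group. Of 20 tested, 15 were higher, none lower and 4 within 1.5-fold, with a median change of 0.83. Cd4, the co-receptor of helper T cells, had 22.5 to 33.1 TPM in AM155 (median 29.1), against 9.36, 4.88, 7.01, 10.8 and 10.9 TPM in Saline, so that the groups did not overlap (1.63 ± 0.15, adjusted p = 4.47e-09). Icos (1.89 ± 0.16), Ctla4 (1.64 ± 0.14) and Pdcd1 (1.64 ± 0.18), receptors of activated T cells, were higher too. Cd8a, of cytotoxic T cells, averaged 12.1 TPM in AM155 and 11.9 TPM in Saline (0.00 ± 0.17), and Foxp3, of regulatory T cells, 3.89 and 4.26 TPM (-0.10 ± 0.11). Both were within 1.5-fold. Among 9 NK cell genes 2 were higher, 2 lower and 4 within 1.5-fold, against 7.82%, 32.7% and 72.0% of all genes. Nkg7 was 0.66 ± 0.21 higher, though not without AM155 6 and Saline 4 (0.49, adjusted p = 0.0777), and Klrb1c, the NK1.1 receptor gene, fell by 0.76 ± 0.15.

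Macrophage and antigen presentation genes were higher. Of 18 macrophage genes 14 were higher, 3 lower and 2 within 1.5-fold, with a median change of 1.19. Ms4a7, a membrane protein of tissue macrophages, had 55.1 to 84.1 TPM in AM155 (median 71.5), against 6.85, 4.94, 9.06, 9.94 and 8.34 TPM in Saline (3.05 ± 0.20, adjusted p = 7.95e-12). C1qb, a chain of the complement recognition protein C1q, had 178 to 231 TPM (median 211), against 33.7, 30.4, 31.2, 31.0 and 31.8 TPM (2.67 ± 0.19). The Saline values of C1qb lay within a narrow band, and all AM155 values stood above it. Trem2, a lipid receptor of macrophages, was 2.18 ± 0.20 higher, Ctss, a lysosomal protease, 2.11 ± 0.18 higher, and Apoe 1.79 ± 0.20 higher. The list did not move as one: Marco, a scavenger receptor of resident alveolar macrophages, averaged 0.474 TPM in AM155 and 1.51 TPM in Saline and fell by 0.75 ± 0.19, and Cd163 fell by 0.58 ± 0.15. Mertk, an engulfment receptor, was within 1.5-fold (-0.16 ± 0.11).

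Of 10 genes of MHC class II presentation, 9 were higher and none lower. H2-Ab1 had 1139 to 1676 TPM in AM155 (median 1328), against 341, 289, 322, 397 and 420 TPM in Saline (1.97 ± 0.17, adjusted p = 1.33e-09). Ciita, the activator of the class II genes, was 1.03 ± 0.14 higher. H2-Ob, a chain that restrains peptide loading in B cells, was the 1 within 1.5-fold (0.08 ± 0.22), but not without AM155 6 (0.21) or Saline 8 (0.23) or 10 (0.20), nor under the 3 other scalings (0.25 to 0.35). Of 12 dendritic cell genes 5 were higher, against 7.82% of all genes, and 4 lower, a share near the 32.7% of all genes. Flt3, the growth factor receptor of the lineage, was 1.40 ± 0.11 higher, and Cd209a, a lectin of a monocyte-derived subset, fell by 1.61 ± 0.16. The chemokine Ccl17 was within 1.5-fold (-0.02 ± 0.18).

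Of 25 genes of the type 1 and interferon gamma list, 24 were higher in AM155, none lower and none within 1.5-fold, with a median change of 1.27. Ifng, the cytokine itself (chr10:118441046-118445892), had 1.62 to 3.19 TPM in AM155 (median 2.86), against 0.345, 0.688, 0.318, 0.574 and 0.664 TPM in Saline (1.27 ± 0.16, adjusted p = 6.46e-07). Cxcr3, a chemokine receptor of type 1 T cells, was 1.97 ± 0.15 higher and its ligand Cxcl10 1.97 ± 0.34 higher. Ubd, a ubiquitin-like protein induced by interferon gamma, had 12.6 to 48.9 TPM (median 25.0), against 0.661, 0.373, 0.441, 0.168 and 0.259 TPM (4.21 ± 0.36, adjusted p = 6.38e-10). The lowest AM155 value of Ubd was far above the highest Saline value. The immunity-related GTPases Igtp (1.83 ± 0.25) and Irgm1 (1.02 ± 0.19), the guanylate-binding protein Gbp2 (0.85 ± 0.18) and the peptide transporter subunit Tap1 (1.75 ± 0.21) were higher. Tgtp1 and Tgtp2 are near-identical neighbours, so how their reads were divided is uncertain. Socs1, an inhibitor of interferon signalling, was the 1 gene of the list without a call.

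Promoters of some of these genes are shown as a description, and their part in the changes was not tested. The motif searched was GAAA, any 2 bases and GAAA again, on either strand, a pattern like the interferon-stimulated response element, with overlapping matches allowed. In RefSeq windows from 250 bases before to 50 after each gene start, 11 of the 20 list genes with a window (55.0%) held it, against 3.95% of 13251 tested genes with a window and 3.44% of all 32851 windows. A list of interferon genes is likely to hold it whatever the data, so this share is not a result of these lungs. In the type I interferon list, where 13 of 19 genes were within 1.5-fold, 9 of 15 genes with a window (60%) held it. A match is a description of the letters and not a site. Of the genes at least 2-fold higher in AM155, 212 had a window and 29 of them (13.7%) held the motif. The 100 bases before the gene start follow for 4 genes, on the gene's own strand in GRCm38.p6, with matches in capitals.
Igtp, chr11:58199456-58199555, plus strand: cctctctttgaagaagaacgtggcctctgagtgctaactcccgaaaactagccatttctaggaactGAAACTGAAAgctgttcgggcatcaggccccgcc
Irgm1, chr11:48871421-48871520, minus strand: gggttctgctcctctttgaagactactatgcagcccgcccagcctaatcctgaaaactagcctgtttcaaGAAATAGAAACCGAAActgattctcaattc
Gbp2, chr3:142620563-142620662, plus strand: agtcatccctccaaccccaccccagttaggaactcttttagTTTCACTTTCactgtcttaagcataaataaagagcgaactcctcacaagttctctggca
Socs1, chr16:10785537-10785636, minus strand: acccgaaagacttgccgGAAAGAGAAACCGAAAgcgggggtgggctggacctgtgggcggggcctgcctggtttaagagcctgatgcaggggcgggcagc

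Type I interferon genes share much of that regulation. Of 19 tested, 7 were higher, against 7.82% of all genes, and none lower, and 13 were within 1.5-fold, a share near the 72.0% of all genes. The median change was 0.16, and under the 3 other scalings 12 to 14 were higher. Zbp1, a sensor of nucleic acids, was 1.28 ± 0.20 higher and Oas1a, a sensor of double-stranded RNA, 1.02 ± 0.14 higher. Ifit1 (-0.08 ± 0.12), Ifit3 (-0.01 ± 0.13), Isg15 (0.01 ± 0.13) and Usp18 (0.08 ± 0.11), all classical responders to type I interferon, were within 1.5-fold.

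RNA of several antimicrobial and acute phase genes was higher. Lcn2, among them, is also in the neutrophil list. Slpi, a protease inhibitor secreted by airway cells, had 483 to 897 TPM in AM155 (median 653), against 35.0, 42.5, 37.5, 39.7 and 44.7 TPM in Saline (4.01 ± 0.22, adjusted p = 4.53e-14). Saa3, a serum amyloid A, had 103 to 184 TPM (median 171), against 31.9, 9.50, 15.3, 14.7 and 16.4 TPM (3.22 ± 0.36). Lcn2, the iron-trapping lipocalin induced by IL-17, had 401 to 552 TPM (median 478), against 84.9, 58.7, 64.1, 68.4 and 112 TPM (2.64 ± 0.22). None of the 3 genes overlapped between the groups. Of 12 acute phase and complement genes 8 were higher and 1 lower: Hp, haptoglobin, fell by 1.14 ± 0.15. Of 11 genes of the IL-17 pathway 8 were higher and none lower. Il17a had 1.95 to 3.64 TPM in AM155 (median 2.43), against 0.874, 0.397, 1.11, 0.973 and 1.13 TPM in Saline (0.89 ± 0.19, adjusted p = 0.000623), and Ccl20, a chemokine for Ccr6-bearing cells, was 1.86 ± 0.24 higher. Il6 was within 1.5-fold (-0.04 ± 0.14).

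Type 2 genes went in both directions. Of 17 genes, 4 were higher, 5 lower and 8 within 1.5-fold, against 7.82%, 32.7% and 72.0% of all genes. The median change was -0.07, and under the 3 other scalings 7 were higher and 3 to 5 lower. The mean of log2(TPM + 1) over the list was 3.23 to 3.65 in AM155 and 2.93 to 3.19 in Saline. Such means did not overlap in 14 of the 37 lists, this 1 among them. Ccl8, a chemokine whose receptor in mice is Ccr8 on type 2 helper T cells (chr11:82115185-82116799), had 173 to 473 TPM in AM155 (median 330), against 6.89, 4.46, 2.44, 3.44 and 4.75 TPM in Saline (5.87 ± 0.33, adjusted p = 7.62e-14). Ccr8 was 1.61 ± 0.17 higher. Il13, a cytokine of the pathway, had 1.09 to 2.22 TPM in AM155 (median 1.73), against 1.95, 1.37, 2.60, 2.14 and 2.13 TPM in Saline (-0.17 ± 0.11, adjusted p = 0.209), and was within 1.5-fold. Il5, the eosinophil growth factor, had 10.5 to 13.7 TPM (median 11.8), against 13.9, 13.3, 21.5, 13.6 and 13.4 TPM (-0.28 ± 0.11, adjusted p = 0.0512), and was within 1.5-fold as well. Il33, an alarm cytokine of epithelium and stroma, had 80.3 to 123 TPM (median 94.6), against 64.4 to 95.6 TPM in Saline (0.28 ± 0.15, adjusted p = 0.136). It was within 1.5-fold as deposited, but was called higher under median-of-ratios scaling (0.48, adjusted p = 0.00423), quantile normalization (0.49, adjusted p = 0.00384) and the common sum (0.56, adjusted p = 0.0019). Il1rl1, the receptor for IL-33, fell by 0.67 ± 0.14 and Il4ra by 0.48 ± 0.14, the second not under the common sum. Of 7 listed eosinophil genes only 4 were tested. Of these 1 was higher, 2 lower and 2 within 1.5-fold, with a median change of -0.30. Prg2, the major basic protein, was 0.78 ± 0.15 higher and Ccr3, the eotaxin receptor, fell by 0.63 ± 0.10. Siglecf fell by 0.33 and was still within 1.5-fold, and its call was lost under the 3 other scalings. Among 11 genes of alternative macrophage activation 5 were higher, against 7.82% of all genes, 1 lower and 4 within 1.5-fold. Mmp12, a macrophage elastase, was 2.22 ± 0.35 higher, and Arg1 was within 1.5-fold (0.00 ± 0.13).

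Mucus and goblet cell genes varied widely among the AM155 libraries. Of 15 tested, 6 were higher, 2 lower and 4 within 1.5-fold. Pigr, which carries IgA across the epithelium, had 109 to 177 TPM in AM155 (median 152), against 47.8, 30.4, 32.3, 30.0 and 38.8 TPM in Saline (2.02 ± 0.20). Slc26a4, the anion exchanger pendrin, was 1.93 ± 0.28 higher. Muc5ac, the inducible airway mucin, had 0.544 to 3.09 TPM (median 1.66), against 0.669, 0.388, 0.550, 0.413 and 0.972 TPM. Its groups overlapped, and the change was 0.68 ± 0.21 (adjusted p = 0.0105). Bpifa1, a secreted defence protein of the upper airways (chr2:154142880-154149219), had the largest negative change of all genes tested. It had 1.68 to 171 TPM in AM155 (median 26.6), against 336, 361, 407, 105 and 366 TPM in Saline, so that the highest AM155 value passed the lowest Saline value (-3.66 ± 0.78, adjusted p = 0.000515).

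Most listed airway and type 1 epithelial genes were lower, against 32.7% of all genes. Scgb1a1, the main secretion of club cells (chr19:9083636-9087958), had 18382 to 29715 TPM in AM155 (median 23538), against 73961, 69442, 68382, 76730 and 64070 TPM in Saline, and fell by 1.56 ± 0.18 (adjusted p = 1.73e-07). No library overlapped. Of 10 club cell genes 8 were lower and 1 within 1.5-fold, and Cyp2f2, a cytochrome of these cells, fell by 1.38 ± 0.19. Of 15 ciliated cell genes 11 were lower (7 or 8 under the other scalings, 4 without AM155 5 and AM155 6), with Tppp3 at -1.24 ± 0.14, while Foxj1, the regulator of motile cilia, had no call (-0.26 ± 0.20). Of 11 alveolar type 1 genes 10 were lower and none higher. Hopx had 160 to 293 TPM in AM155 (median 208), against 440, 418, 445, 499 and 417 TPM in Saline (-1.04 ± 0.15).

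Of 11 alveolar type 2 genes 8 were within 1.5-fold, a share near the 72.0% of all genes, 1 was higher and 2 were lower, with a median change of -0.14. The difference between the type 2 and type 1 lists was not tested. Sftpc, the surfactant protein specific to these cells, had 12703 to 18795 TPM in AM155 (median 15310), against 19179, 18981, 17419, 19307 and 17999 TPM in Saline. Its change of -0.26 ± 0.12 was not a call (adjusted p = 0.0854), and it was within 1.5-fold (adjusted p = 0.00949). Abca3, Lamp3, Napsa and Slc34a2, which serve surfactant storage and transport, were also within 1.5-fold, with changes between -0.15 and 0.13. Sftpd, a lectin that binds microbes, was 0.81 ± 0.16 higher, and Lyz1 fell by 0.70 ± 0.15. Under the 3 other scalings 4 or 5 of the list were higher and 8 or 9 within 1.5-fold.

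Of 15 endothelial genes 13 were lower under each scaling tried. Tek, the angiopoietin receptor Tie2, had 46.8 to 88.7 TPM in AM155 (median 67.6), against 190.4, 150.0, 195, 202 and 185 TPM in Saline (-1.42 ± 0.21, adjusted p = 8.11e-06). Ednrb fell by 1.35 ± 0.22 and Kdr, a VEGF receptor, by 1.11 ± 0.17, while Emcn was within 1.5-fold (-0.05 ± 0.13). All 11 smooth muscle genes were lower under each scaling, and Cnn1, calponin, had 16.6 to 51.8 TPM (median 30.2), against 96.4, 90.7, 101, 72.5 and 106 TPM (-1.64 ± 0.28). Of 20 matrix genes 6 were higher, 1 lower and 9 within 1.5-fold. Tnc, tenascin C, was 1.04 ± 0.24 higher and Spp1, osteopontin, 1.25 ± 0.17 higher, while Col4a1 of basement membranes was within 1.5-fold (-0.13 ± 0.15). In the lymphatic list, Ccl21a (0.95 ± 0.11) and Reln (0.97 ± 0.11) were higher, Lyve1 fell by 1.70 ± 0.34, and Prox1, the regulator of lymphatic identity, was within 1.5-fold (0.14 ± 0.09).

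Markers of tissues other than lung parenchyma moved too. All 12 cardiac muscle genes, which mouse lungs express in the wall of pulmonary veins, were lower, and their summed level was 160 to 645 TPM in AM155 and 639 to 1835 TPM in Saline. By the naming rule Nppa (-2.74), Tnnc1 (-2.58), Mb (-2.57), Sln (-2.31), Myl7 (-2.23), Cox8b (-2.21) and Csrp3 (-2.11), genes of heart muscle, were among the 12 largest negative changes. Myh6, the cardiac myosin heavy chain, had 3.06 to 9.69 TPM (median 6.31), against 41.4, 51.9, 48.5, 17.2 and 47.8 TPM (-2.48 ± 0.29). Saline 8 was the lowest Saline library for the cardiac genes. Of 9 adipocyte genes 7 were lower, with sums of 45.6 to 558 TPM and 298 to 482 TPM. Adipoq had 0.405 to 22.8 TPM (median 4.51), against 18.9, 13.8, 12.6, 7.49 and 17.9 TPM. Its change of -1.50 ± 0.51 (adjusted p = 0.0191) was lost without AM155 5 (-1.13, adjusted p = 0.0668) or AM155 6 (-1.24, adjusted p = 0.0703) and under the common sum (-1.29, adjusted p = 0.0543), and without both only 1 of the 9 genes was lower. Of 8 erythroid genes 5 were lower (3, 2 and 2 under the other scalings), and Hba-a1, whose near-identical copy Hba-a2 may share its reads, had 1938 to 4443 TPM, against 4743, 5001, 7249, 5575 and 4629 TPM (-1.03 ± 0.27). No defining marker of the 3 lists was at 0 in any library. Their part in the lower epithelial and endothelial values was not tested.

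A set of genes outside the cell type lists was lowered as well. Lrat, which stores vitamin A as an ester, had 9.62 to 22.3 TPM in AM155 (median 11.6), against 69.2, 65.3, 86.1, 69.7 and 58.2 TPM in Saline (-2.28 ± 0.26). Cyp26b1, which degrades retinoic acid, had 1.98 to 4.56 TPM (median 2.74), against 14.7, 35.5, 27.3, 11.7 and 12.5 TPM (-2.36 ± 0.43). Bex2 had 1.81 to 5.63 TPM (median 4.76), against 28.4, 27.5, 24.4, 27.7 and 19.99 TPM (-2.33 ± 0.25). None of these 3 genes overlapped. Among the 12 largest positive changes were also Ly6i (3.59 ± 0.34), Gp2, a bacterial receptor of M cells (2.92 ± 0.39), and AA467197 (2.69 ± 0.29), none of which overlapped. Tmem161b was named by the same rule (2.81 ± 0.74), yet its groups overlapped: it had 140 to 610 TPM in AM155, and 10.2, 8.53, 497, 543 and 10.2 TPM in Saline, where libraries 5 and 8 were high.

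Genes of the daily clock were called in both directions. Of 16 tested, 7 were higher, 6 lower and none within 1.5-fold. Dbp, an output gene of the clock, had 3.16 to 49.6 TPM in AM155 (median 37.6), against 2.92, 1.80, 2.48, 2.59 and 2.52 TPM in Saline (2.53 ± 0.57, adjusted p = 0.000958), and Nr1d2, a repressor in the clock, was 1.88 ± 0.40 higher. Npas2, which drives them as an activator, had 1.25 to 9.43 TPM (median 2.30), against 10.9, 11.4, 13.7, 11.7 and 11.9 TPM (-1.67 ± 0.28), and its partner Arntl fell by 1.16 ± 0.21. The labels give no time of day for tissue collection, and its part in these values was not tested. Of 17 immediate early genes 10 were lower (5, 6 and 3 under the other scalings), with Ier3 at -1.03 ± 0.17 and Junb within 1.5-fold (-0.06 ± 0.13). Of 24 proliferation genes 14 were higher and 11 within 1.5-fold. Mki67, a marker of dividing cells, had 8.43 to 16.2 TPM (median 12.8), against 5.40, 5.48, 6.01, 6.03 and 7.51 TPM (0.93 ± 0.16).

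All 25 ribosomal protein genes were within 1.5-fold under each scaling, against 72.0% of all genes as deposited, with a median change of -0.01 as deposited, and none had a call there, though 7 to 19 were higher under the other scalings and 1 lower under quantile normalization. Actb, cytoplasmic actin, had 3471 to 4690 TPM in AM155 (median 4021), against 4415, 3178, 3974, 4637 and 4293 TPM in Saline (0.00 ± 0.12, adjusted p within 1.5-fold = 7.88e-05). Eef1a1, a translation elongation factor, had 2559 to 3740 TPM (median 3496), against 3180, 3084, 3081, 3447 and 3331 TPM (0.04 ± 0.10). The groups overlapped for both genes. Of 15 genes of cholesterol synthesis and uptake 13 were within 1.5-fold, against 72.0% of all genes. All 13 mitochondrially encoded genes were lower as deposited, between -0.77 and -0.39, but 4, 5 and 10 of them under the other scalings.

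**Figure D2:**
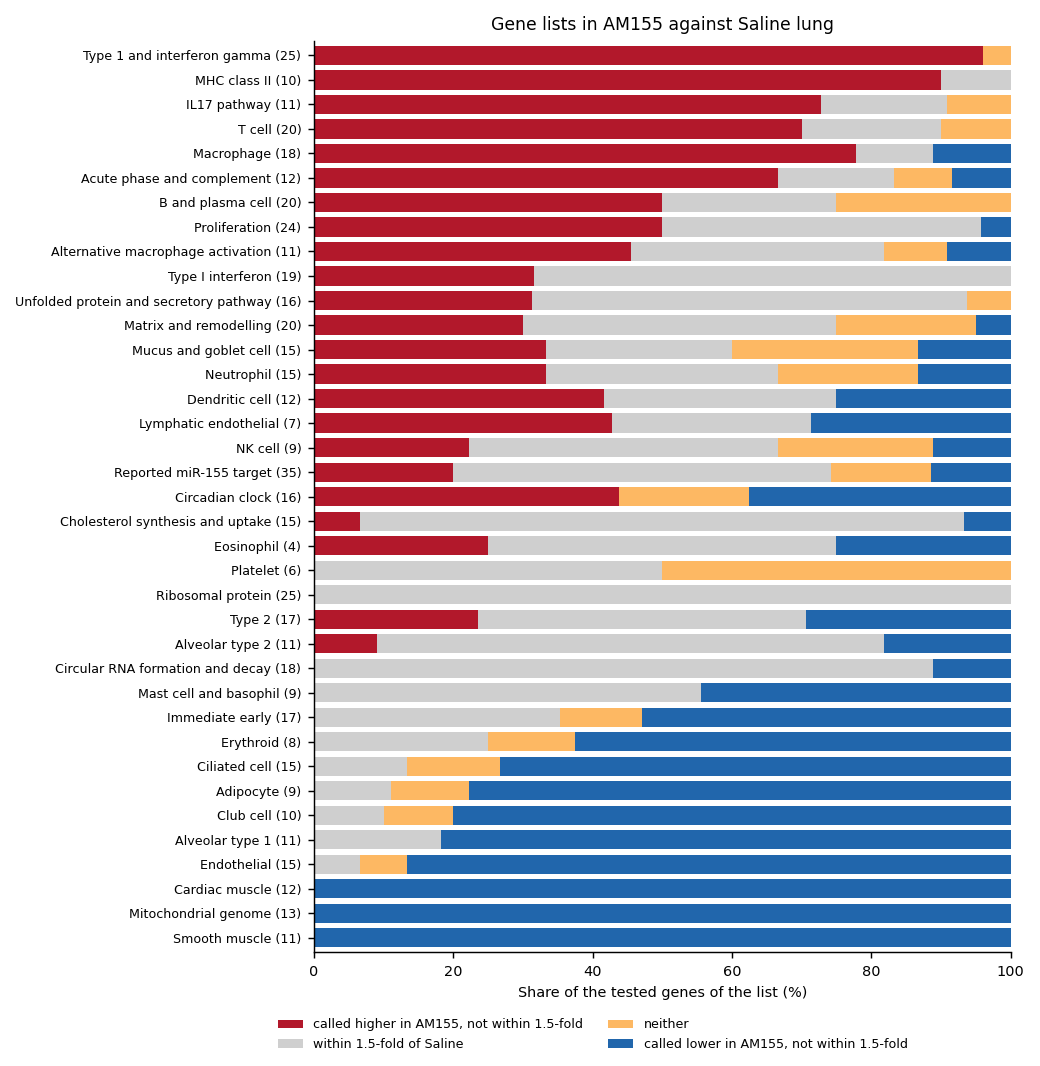
Each bar is 1 of 37 gene lists, with the number of genes tested in brackets, and shows the share of genes called higher in AM155 and not within 1.5-fold (red), within 1.5-fold of Saline (grey), with neither answer (orange) and called lower and not within 1.5-fold (blue). In the type 1 and interferon gamma list 24 of 25 genes are red, the ribosomal protein list is wholly grey, and the smooth muscle, cardiac muscle and mitochondrial lists are wholly blue.

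**Figure D3:**
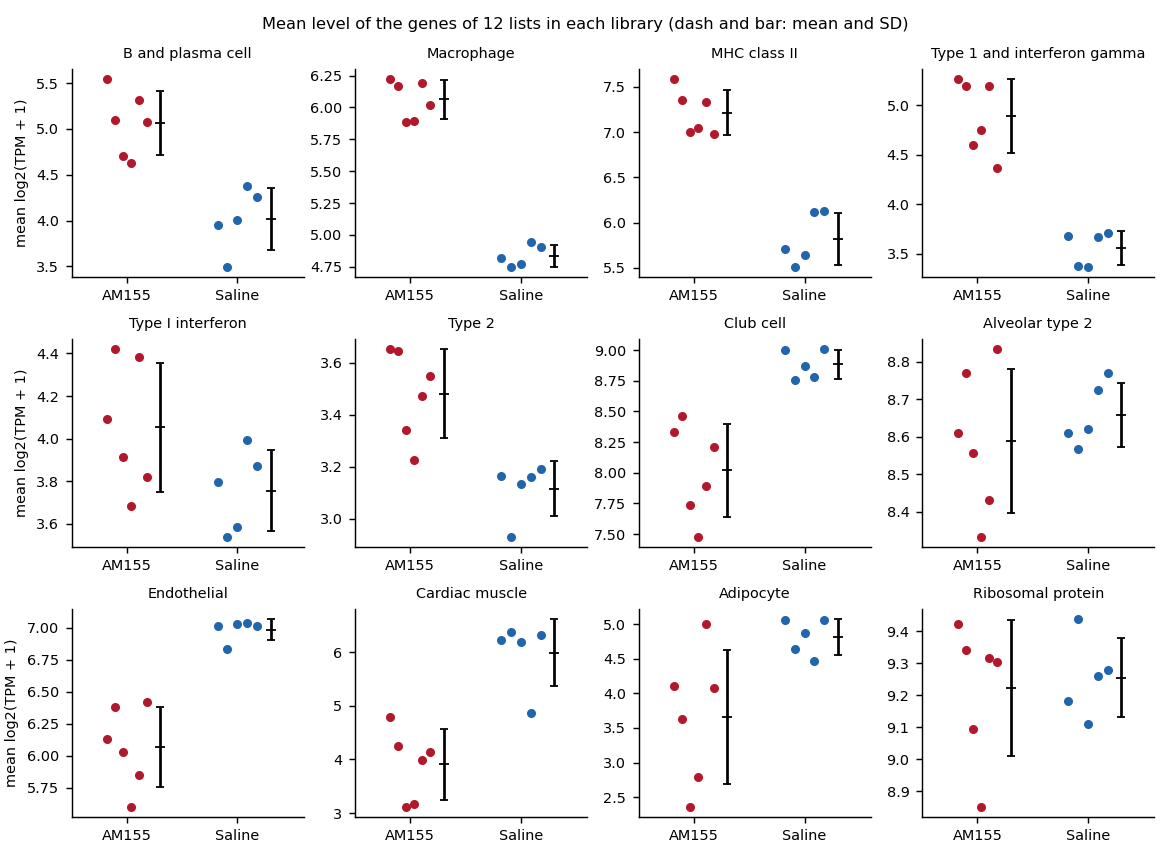
Points are libraries, 6 AM155 on the left of each panel and 5 Saline on the right, and the vertical axis is the mean of log2(TPM + 1) over the genes of a list. The mean and SD stand as a dash and bar beside each group. The B and plasma cell, macrophage, MHC class II, interferon gamma, type 2, club cell, endothelial and cardiac muscle means do not overlap between the groups. The type I interferon, alveolar type 2, adipocyte and ribosomal protein means do.

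Of 35 reported targets of miR-155, 8 were higher in AM155, against 7.82% of all genes, 8 lower, against 32.7%, and 19 within 1.5-fold, against 72.0%. Their median change was 0.02, against -0.17 for all genes. Under the 3 other scalings 18 to 21 were higher and 2 to 6 lower. Bach1, a repressor of haem oxygenase and an often used target, had 16.8 to 25.4 TPM in AM155 (median 22.6), against 22.9, 20.1, 24.3, 24.6 and 21.5 TPM in Saline, and was within 1.5-fold (-0.04 ± 0.09). Socs1 had 0.374 to 1.81 TPM (median 0.957), against 0.579, 0.753, 0, 0.468 and 1.12 TPM (0.35 ± 0.26, adjusted p = 0.282), with neither answer. Spi1, the myeloid transcription factor PU.1, was 0.77 ± 0.13 higher, Inpp5d, the phosphatase SHIP1, 0.68 ± 0.15 higher, and Trp53inp1 1.01 ± 0.15 higher. Meis1, a homeobox factor whose site is printed above, had 21.01 to 37.1 TPM (median 33.7), against 72.6, 48.8, 68.1, 75.8 and 68.0 TPM, and fell by 1.04 ± 0.14. Several of these genes are also markers of cells whose lists moved, such as Spi1 and Inpp5d in myeloid cells, and that part was not tested.

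No reported target was called in the direct contrast of AM155 with CDG_HDM. Of all 17437 genes, 18 (0.103%) were called between AM155 and CDG_HDM, 16 higher (0.0918%) and 2 lower (0.0115%), and 16999 (97.5%) were within 1.5-fold. All but 1 of the 35 targets were within 1.5-fold, including Bach1 (-0.04 ± 0.08). Over all genes with an annotated untranslated region, the median AM155 minus CDG_HDM change was -0.07 for 560 genes with an 8-base match, -0.07 for 981 with a 7-base match only and -0.08 for 15382 with none, and none of the 1541 genes with a match was called. Against Saline the medians of these classes were -0.17, -0.18 and -0.17. Matches were counted in the longest annotated untranslated region of each gene. Its median length was 2722, 2710 and 1022 bases in the 3 classes, and this difference was not adjusted for. The search for seed matches was added after the data were seen.

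Of the 18 genes called between AM155 and CDG_HDM, 13 had no call between AM155 and Saline and 7 of these were within 1.5-fold, 4 were higher and 1 was lower. Over all genes 40.5% were called against Saline and 56.2% were within 1.5-fold with no call. The 18 were picked by their AM155 values, so these counts only describe them. S100a8, a subunit of calprotectin in neutrophils and monocytes, had 233 to 717 TPM in AM155 (median 372), 84.9 to 238 TPM in CDG_HDM, and 487, 317, 183, 398 and 376 TPM in Saline. Its AM155 minus CDG_HDM change was 1.41 ± 0.24 (adjusted p = 0.00738), and its AM155 minus Saline change 0.15 ± 0.28 (adjusted p = 0.689). S100a9, its partner, gave 1.37 ± 0.25 and 0.12 ± 0.29, and its call against CDG_HDM was lost without AM155 3 or AM155 8. Against Saline both genes had neither answer, since they missed the test within 1.5-fold (adjusted p = 0.0895 for S100a8 and 0.0801 for S100a9). Ifi27l2a, an interferon-induced gene, had 223 to 518 TPM in AM155 (median 264), 79.1 to 181 TPM in CDG_HDM, and 324, 327, 199.5, 249.03 and 347 TPM in Saline, with changes of 1.14 ± 0.18 (adjusted p = 0.00206) and 0.12 ± 0.21. It was within 1.5-fold of Saline, but not under the 3 other scalings (0.32 to 0.40) nor without AM155 6, AM155 11 or Saline 2, 4 or 10 (0.17 to 0.21). Rsad2, the antiviral enzyme viperin, had 4.28 to 8.99 TPM in AM155 (median 7.47), 2.32 to 4.72 TPM in CDG_HDM, and 5.97, 3.71, 7.55, 7.75 and 5.68 TPM in Saline (0.88 ± 0.14, adjusted p = 0.00231, and 0.16 ± 0.16). Rsad2 was within 1.5-fold of Saline, but not under median-of-ratios scaling (0.34), and under the common sum it was called higher (0.40, adjusted p = 0.0362). Gzma, a granzyme of NK and T cells (0.80 ± 0.17 and -0.28 ± 0.19), and Slc4a1, the red cell anion exchanger (0.65 ± 0.14 and -0.11 ± 0.16), had changes in the same order. Against Saline, Gzma had neither answer (adjusted p within 1.5-fold = 0.0829), and Slc4a1 was within 1.5-fold. The call against CDG_HDM held in 13 of 26 settings for Gzma and in 10 of 26 for Slc4a1.

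A pair of neutrophil granule genes lay above Saline in AM155. Ngp, neutrophilic granule protein (chr9:110419747-110423012), had 4.78 to 19.7 TPM in AM155 (median 13.4), 1.10 to 2.97 TPM in CDG_HDM, and 4.19, 1.36, 2.08, 3.01 and 1.70 TPM in Saline. The AM155 values lay above both other groups, at 2.36 ± 0.20 against CDG_HDM (adjusted p = 2e-08) and 1.98 ± 0.24 against Saline (adjusted p = 2.37e-07). Camp, the cathelicidin precursor, had 2.58 to 9.86 TPM in AM155 (median 5.11), 0.493 to 2.05 TPM in CDG_HDM, and 1.67, 0.635, 1.43, 1.44 and 1.57 TPM in Saline (1.71 ± 0.17 and 1.43 ± 0.20). Both genes belong to immature neutrophils of the bone marrow. Of 15 neutrophil genes tested against Saline 6 were higher, against 7.82% of all genes, and 2 lower, against 32.7%. Markers of mature neutrophils such as Cxcr2 (-0.23 ± 0.13) and Csf3r (0.03 ± 0.17) were within 1.5-fold and Retnlg fell by 0.81 ± 0.24. The Retnlg call was lost under the common sum (-0.53, adjusted p = 0.0728) and without AM155 5 and AM155 6 (-0.67, adjusted p = 0.056), and Csf3r was not within 1.5-fold under the common sum (0.30). Without Saline 4, Cxcr2 was lower in AM155 (-0.39, adjusted p = 0.00809). Apol11b (0.91 ± 0.19) and Oas2 (0.84 ± 0.14) were also above Saline, and Crybg2 fell by 0.96 ± 0.13 against Saline and by 0.56 ± 0.11 against CDG_HDM. Leaving out AM155 3, AM155 5 or AM155 8 reduced the 18 calls to 9, 9 and 7, and Ngp, Camp, S100a8 and Ifi27l2a kept theirs in all settings tried.

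**Figure D4:**
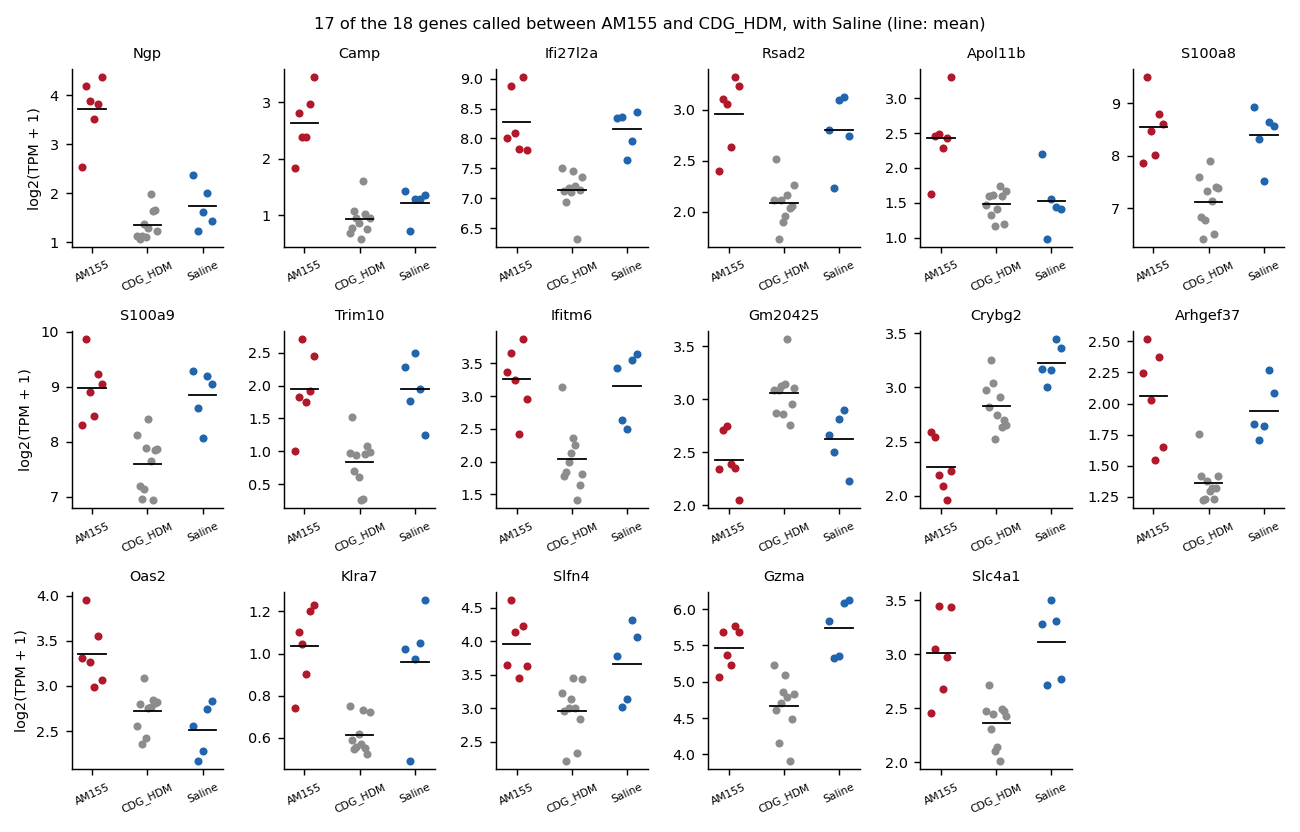
The panels show 17 of the 18 genes called between AM155 and CDG_HDM, in order of adjusted p. Points are libraries (6 AM155, 10 CDG_HDM, 5 Saline, from left to right), the vertical axis is log2(TPM + 1) and lines are means. In 12 panels the AM155 points have no call against Saline, and in the Ngp and Camp panels they lie above both other groups.

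Circular RNAs arise when a splice donor joins an upstream acceptor, and they outlast the linear message because they have no ends. The circular table gives 1 value per gene symbol without junctions, so a value cannot be assigned to a particular circle. The summed circular TPM was 43544 to 229968 in AM155 and 45731 to 87913 in Saline (difference of means 43604, exact permutation test from both sides, p = 0.511). Without circular Sftpc it was different by -18202 TPM, lower in AM155 (exact permutation p = 0.0173, not adjusted), so the direction of the sum rests on AM155 5 and AM155 6. The comparison without circular Sftpc was not planned and is not among the 3 adjusted tests. The number of genes with circular RNA above 0 was 1310 to 1529 in AM155 and 1410 to 1778 in Saline, a difference of -177 (exact permutation p = 0.0303, adjusted p = 0.0455 over 3 tests). Circular Sftpc was listed at 29.6, 1297, 177260, 187944, 5123 and 12008 TPM in AM155 2, 3, 5, 6, 8 and 11, and at 0, 0, 10683, 0 and 2.67 TPM in Saline. Among these 11 libraries the high values stand in 2, and the gene was not called (adjusted p = 0.217).

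Of 2271 circular genes tested 12 (0.528%) were called, 5 higher (0.22%) and 7 lower (0.308%), and of the 468 above 0 in all 11 libraries, tested alone, 48 (10.3%) were called, 7 higher (1.5%) and 41 lower (8.76%). Circular Plcg2, from the gene of a phospholipase in B cell and myeloid receptor signalling, was listed at 31.2, 32.9, 18.4, 16.9, 19.8 and 20.1 TPM in AM155, and at 0, 0, 0, 0 and 19.9 TPM in Saline. It was called (adjusted p = 0.000239), and on log2(TPM + 1) the change was 3.67 ± 0.52 (adjusted p = 0.00041), while its linear RNA was 0.85 ± 0.15 higher. In a fit of the 11 libraries alone the circular call was lost (adjusted p = 0.127). Circular Adgre1, from the macrophage gene for F4/80, had 34.3 to 69.2 TPM in AM155 (median 42.7), against 9.25, 8.32, 8.29, 18.8 and 17.7 TPM in Saline (1.96 ± 0.40), and its linear RNA was 1.48 ± 0.16 higher. Its circular call was lost under the common sum and without AM155 3, Saline 2 or Saline 5. Circular Etv6, among the most abundant, was 0.60 ± 0.14 higher, a call that held in 6 of 18 settings. In CDG_HDM, circular Plcg2 was above 0 in all 10 libraries (median 27.2 TPM). The CDG_HDM medians of circular Adgre1 and Etv6 were 35.7 and 719 TPM.

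Among the lower circles, Dock4, from a gene of cell migration, had 28.1 to 42.5 TPM in AM155 (median 33.2), against 83.7, 99.2, 72.9, 64.2 and 63.6 TPM in Saline (-1.16 ± 0.21, adjusted p = 0.00895), and its linear RNA fell by 0.62 ± 0.11. This circular call held in 16 of 18 settings and was lost under the common sum. Asph had 26.0 to 52.2 TPM (median 31.4), against 78.5, 96.6, 71.1, 55.5 and 58.9 TPM (-1.06 ± 0.22), a call that was lost under the common sum, in a fit of the 11 libraries alone and without AM155 2 or Saline 2, 4 or 5. Circular Pggt1b was listed at 0 in all 6 AM155 libraries, and at 12.6, 15.7, 16.8, 16.1 and 17.7 TPM in Saline, with linear RNA that had no call (-0.18 ± 0.10). The circular call was lost without Saline 2 or Saline 5. In CDG_HDM, circular Pggt1b was above 0 in 4 of 10 libraries (median 0), and the medians of circular Dock4 and Asph were 38.7 and 37.3 TPM. Relative to linear RNA of the same gene, 3 of 2266 ratios (0.132%) were called: Plcg2 and Txndc11 higher and Pggt1b lower. The Txndc11 ratio was close to the threshold (adjusted p = 0.048), and its circular RNA was above 0 in 1 Saline library. The circular call of Txndc11 held in 11 of 17 settings and was lost with a pseudocount of 1 (adjusted p = 0.133). Leaving out 1 library reduced the 12 circular calls to 2 without Saline 2 or Saline 5, to 6 without AM155 2, AM155 3 or Saline 8, and to 7 without AM155 11. Of 18 genes of circular RNA formation and decay, 16 were within 1.5-fold in linear RNA, against 72.0% of all genes. Qk fell by 0.38 ± 0.14, a call that was lost without AM155 6 or 8 or Saline 2, 8 or 10 (-0.36 to -0.33), and under the 3 other scalings.

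**Figure D5:**
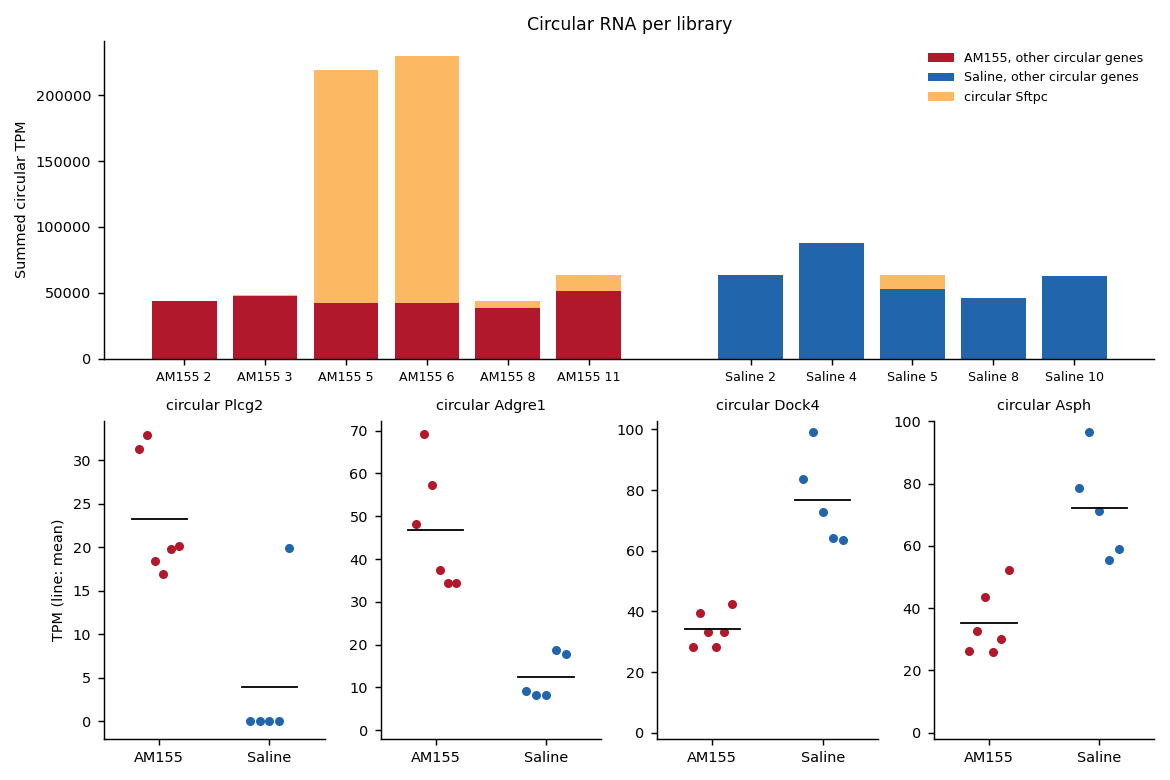
The upper panel stacks the circular TPM of each library, with Sftpc in orange, AM155 libraries on the left and Saline libraries on the right. AM155 5 and AM155 6 reach 219215 and 229968 TPM through Sftpc. The lower panels show circular Plcg2, Adgre1, Dock4 and Asph per library in TPM with group means as lines, and only Plcg2 has a Saline library (19.9 TPM) among the AM155 values.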

How the data were processed

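RNA of left lung lobes was sequenced, and the authors deposited 1 table of linear and 1 of circular RNA in TPM with 1 column per library. The submitters' processing notes name CASAVA 1.9 and the build mm10. No aligner, quantifier or circular RNA caller is named (not given in the sources used here), and the labels differ on read length. Columns were assigned to samples by the descriptions in the labels, and every column of per-sample values was used.

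From the deposited TPM, 17437 linear genes that reached 1 TPM in 5 or more libraries were fitted with limma 3.58.1 in R 4.3.3 on log2(TPM + 1), with all 27 libraries and a mean-variance trend, and p-values were adjusted over all genes by Benjamini-Hochberg. The equivalence test used 2 one-sided tests with a bound of 1.5-fold. A fold change on this scale understates that of low genes. Circular RNA of 2271 genes was fitted on log2(TPM + 3.48e-06), and circular to linear ratios of 2266 genes likewise. Sums were compared by exact permutation tests (scipy 1.17.1). The fit was tested on simulated data. Symbols that spreadsheets turned into dates (26) are not named.

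Members and gene lists were chosen with earlier results of these data known. Genes were named by a rule: the 12 largest positive and negative changes with at least 5 TPM, the extremes and the most abundant unchanged member of each list, and the 6 smallest p against CDG_HDM and in the circular table. Members of the fixed lists outside this rule, and 17 of the 18 genes called against CDG_HDM, were named after their values were seen. Each library is 1 mouse, per the labels. Alternatives were other pseudocounts, filters and scalings, array weights, a replicate block, fits of 11 libraries and leaving out libraries. The microRNA's host gene, antigen receptor genes and some listed genes are not reported here.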

Additional observations from a re-analysis of the deposited data

Results flagged for a closer look

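Of 208 groups of values examined, 22 held a library farther from the rest than Dixon's 95% limit allows, where chance gives about 1 in 20. In AM155 11, Ifng (1.62 TPM) and Saa3 (103 TPM) were lowest and Hba-a1 (4443 TPM) was highest. In AM155 6, Bex2 was low (1.81 TPM), circular Qk was high (1847 TPM), circular Zfp608 was listed at 15.98 TPM while the other AM155 libraries were at 0, and the mean of the eosinophil list was low (1.85 on the log2 scale). Bpifa1 was high in AM155 2 (171 TPM) and low in Saline 8 (105 TPM). Adipoq was high in AM155 8 (22.8 TPM).

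In Saline 4, Camp (0.635 TPM), Meis1 (48.8 TPM) and circular Prex2 (253 TPM) were low, circular Txndc11 was listed at 12.8 TPM while the other Saline libraries were at 0, and the means of the type 2 list (2.93) and the endothelial list (6.84) were low on the log2 scale. In Saline 8 the mean of the cardiac muscle list was low (4.87). Il5 (21.5 TPM) and circular Sftpc (10683 TPM) were high in Saline 5, circular Plcg2 (19.9 TPM) in Saline 10. Circular Macf1 was high in AM155 3 (2614 TPM) and in Saline 2 (3412 TPM).

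The change against Saline differed between AM155 and CDG_HDM in 18 genes, by limma's adjusted p for AM155 minus CDG_HDM, of which 17 are given. The difference was 2.36 for Ngp, 1.71 for Camp, 1.41 for S100a8, 1.37 for S100a9 and 1.21 for Ifitm6. It was 1.14 for Ifi27l2a, 1.11 for Trim10, 0.99 for Slfn4 and 0.95 for Apol11b. It was 0.88 for Rsad2, 0.80 for Gzma, 0.70 for Arhgef37, 0.65 for Slc4a1, 0.63 for Oas2 and 0.42 for Klra7. For Crybg2 it was -0.56 and for Gm20425 -0.63.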

How the results depend on the processing

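Against Saline the calls numbered 4486 without AM155 5 and AM155 6 (2836 lower). Higher calls numbered 3521, 3297 and 4685 under median-of-ratios, quantile and common-sum scaling, and lower calls 3438 and 2141 under the first and the last. Against CDG_HDM the 18 calls became 34, 33 and 38 under these scalings, 29 without AM155 5 and AM155 6, 28 without AM155 6 and Saline 4, and 7 to 21 with 1 library left out. The 12 circular calls became 48 among genes above 0 in all 11 libraries, 6 in a fit of the 11 libraries, 3 with a common sum and 2 to 13 with 1 library left out. The 3 ratio calls became 1 among genes above 0 in all 11 libraries and 1 to 5 with 1 library left out. The sum of circular TPM reversed without circular Sftpc, to -18202. The difference in circular genes above 0 was -222.5 to -130.5 with 1 library left out, with exact permutation p between 0.00952 and 0.0667. Scgb1a1 had no change (0) under quantile normalization, which gives the top gene of every library the same value. Except for such constructions, the cause was not tested.

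Replicate numbers 2, 5 and 8 are shared by AM155 and Saline, but deviations of same-numbered libraries correlated at 0.0642, 0.0251 and 0.0744, so the numbers were not taken as pairs. With the replicate block there were 6294 calls against Saline, 10 against CDG_HDM, 1 circular and 1 ratio call. Over the 3 pairs, where p cannot go below 0.25, the difference was -151527 TPM in the linear sum and -106 circular genes.

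TPM carries no counts, so depth could not be weighed, and values near the pseudocount are compressed. Sensitization and treatment cannot be told apart against Saline, nor oligonucleotide and nanoparticle against CDG_HDM.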
